A study of Homo sapiens with 6 samples.

Results

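The 10 genes described here brake MAP kinase signalling, grouped as feedback on ERK, though DUSP10 acts on the stress kinases JNK and p38. They are the MAP kinase phosphatase genes DUSP1, DUSP4, DUSP5, DUSP6, DUSP7 and DUSP10, the Sprouty genes SPRY2 and SPRY4, and SPRED1 and SPRED2. They were chosen by name and found by symbol among the 58735 genes of the deposited table, where all 10 were present. The cells were HOK-16B, a line of immortalized oral keratinocytes from a human, and so a model of 1 line only. A description in the labels numbers the line differently in each sample, while titles and cell line labels give HOK-16B for all 6. All 6 libraries came from cells that the series describes as given an inflammatory stimulus. The 3 libraries of the control group had been pretreated with the vehicle excipient alone (labelled NC) and the 3 of the other group with cannabidiol (CBD), a plant cannabinoid. Which stimulus was used, at what CBD dose and for how long is not in the labels, and unstimulated cells were not analysed here. Since nothing says that replicates were separate cultures, each p-value speaks only of the spread between these 6 libraries, and that spread may be technical.

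ERK is the last kinase of a relay that runs from growth factor receptors through RAS, RAF and MEK. Active ERK switches on many genes, and among them are genes for proteins that then weaken the relay, a negative feedback. DUSP proteins remove the activating phosphates from MAP kinases. DUSP5, in the nucleus, and DUSP6 and DUSP7, in the cytoplasm, act on ERK, DUSP10 acts on the stress kinases JNK and p38, and DUSP1 and DUSP4 are nuclear enzymes that act on all of these. Sprouty proteins interrupt signalling between receptor and RAF, and SPRED proteins bring the RAS inactivator neurofibromin to the membrane. DUSP1 is in addition an early response gene that is induced by stress, glucocorticoids and inflammatory stimuli and limits p38 signalling.

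The members lay in opposite directions. DUSP1 and DUSP10 were higher in every CBD library than in every vehicle library, by 31.2% and 28.4% of the vehicle mean. DUSP4, DUSP5, DUSP7, SPRED1, SPRED2 and SPRY4 were lower in every CBD library than in every vehicle library, by mean differences that ran from -6.76% for DUSP7 to -57.1% for SPRY4. DUSP6 and SPRY2 had lower means with CBD, and their groups overlapped. None of these differences passed the test over all genes: of the 8 members at a mean of 1 FPKM or more, limma called 0 at an adjusted p under 0.05, against 0.352% of 12517 tested genes. At an unadjusted p under 0.05 limma listed 5 of the 8 (DUSP1, DUSP5, DUSP10, SPRED1 and SPRED2), against 31.4% of all tested genes, and a second fit, limma-voom on the fragments recovered from the FPKM values, called the same 5, against 13.7%. The groups did not overlap in 7 of the 8 tested members, 2 with CBD above and 5 with CBD below, against 18.7% and 21.9% of all tested genes.

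Upstream sequence is shown for DUSP1 and DUSP10, the 2 members that lay higher, and for SPRED2, one of those that lay lower, so that the 2 directions can be set side by side. Windows came from RefSeq (GRCh38.p14), in which 8 of the 10 members had 12 annotated starts between them. DUSP4 and DUSP5 were not found. Each window held the 250 bases before a start. The start nearest the 5′ end of the GENCODE gene was used, and bases inside the gene span were left out. That left none for SPRED1, DUSP6 and SPRY4. DUSP7 and SPRY2 each had a window wholly outside the gene span, which is not printed. Capitals mark matches on either strand to 7 motifs: the cyclic AMP response element (CRE) TGACGTCA, its core TGACG, the AP-1 site TGANTCA, the ETS site CCGGAAG, the GC box GGGCGG, the TATA box TATAAA and the CArG box of serum response factor. The core lies inside the full CRE, so these 2 overlap. The DUSP1 run is the minus strand of chr5:172771196-172771445 (250 bases), the DUSP10 run the minus strand of chr1:221742177-221742339 (163 bases) and the SPRED2 run the minus strand of chr2:65432638-65432849 (212 bases).
DUSP1: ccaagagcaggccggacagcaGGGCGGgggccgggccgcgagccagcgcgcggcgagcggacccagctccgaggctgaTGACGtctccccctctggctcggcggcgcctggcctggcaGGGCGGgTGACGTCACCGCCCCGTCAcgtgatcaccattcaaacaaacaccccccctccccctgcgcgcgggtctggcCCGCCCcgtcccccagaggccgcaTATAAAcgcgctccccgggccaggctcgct
DUSP10: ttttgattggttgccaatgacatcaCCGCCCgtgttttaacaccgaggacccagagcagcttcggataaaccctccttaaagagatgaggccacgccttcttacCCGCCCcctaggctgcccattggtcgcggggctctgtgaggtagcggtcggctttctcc
SPRED2: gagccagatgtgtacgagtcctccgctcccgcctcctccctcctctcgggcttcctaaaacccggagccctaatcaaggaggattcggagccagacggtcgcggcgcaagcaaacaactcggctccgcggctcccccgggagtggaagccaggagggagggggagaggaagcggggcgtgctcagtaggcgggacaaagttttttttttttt

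The DUSP1 window held a full CRE that began at position -125 from the start, CRE cores at -172, -125, -122 and -111, GC boxes at -229, -132, -117 and -54, and a TATA box at -30. In the printed DUSP10 stretch only GC boxes were found, at -225 and -146, and in the SPRED2 stretch none of the 7 motifs. Both stretches lack the bases nearest the start, so a TATA box placed like that of DUSP1 could not appear in them. With those bases included, the DUSP10 window held a further GC box, at -46, and the SPRED2 window still none of the 7. The window of the other annotated SPRED2 start held a TATA box at -31. The SPRED2 stretch does not stand for all members that lay lower: the DUSP7 window held GC boxes at -94 and -44. Over the 12 member windows the full CRE was found in 1, against 1.65% of all 35116 windows of the same length, and its core in 3, against 21.2%. A GC box was found in 7, against 42.6%, and a TATA box in 2, against 10.7%. AP-1, ETS and CArG matches were found in 0 of the 12, where 6.57%, 8.52% and 1.16% of all windows hold one. A match describes letters in a window and is not evidence of a bound factor. Taken over its full 250 bases, the DUSP1 window had a GC content of 74.4%, the DUSP10 window 56.4% and the SPRED2 window 58.8%. The median over all windows was 58%.

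The libraries held 18213784 to 22158614 recovered fragments each. The label of keratinocytes was checked against 8 keratinocyte markers, all of which lay above 1 FPKM, with KRT5 highest at a mean of 3330 FPKM. Their summed level was 7808 to 9013 FPKM in vehicle libraries and 9552 to 9956 in CBD libraries, so the sum lay higher with CBD. It was made up mostly of KRT5 and KRT14 (mean 3181 FPKM), and the markers did not move together. KRT5, KRT14 and SFN lay higher in every CBD library. KRT6A lay lower in every one (means 1352 and 1289 FPKM), and TP63, CDH1, DSG3 and PERP overlapped. Of the markers of other cells, 1 of 6 for fibroblasts reached 1 FPKM (COL1A1, mean 7.91; list sum 6.94 to 7.70 with vehicle and 8.94 to 8.99 with CBD), 1 of 4 for melanocytes (PMEL, 1.04; 1.02 to 1.53 and 1.41 to 1.60), 1 of 5 for leukocytes (CD14, 2.52; 2.28 to 3.16 and 2.32 to 3.25) and 0 of 4 for endothelium, with TYR and CD3E at 0 in every library. Vehicle replicate 1 stood apart, with a score of -25.1 on the first principal component, which took up 47.7% of the variance. Vehicle replicates 2 and 3 scored 0.739 and -9.36, and the CBD libraries 10.3 to 12.7. The mean GC content of the transcripts behind each fragment was 49.6% to 50.3% in vehicle libraries and 50.7% to 50.8% in CBD libraries. Across 12510 genes, which are not independent, the log2 difference rose with GC content (Spearman 0.67). The part of marker levels in the results was not tested, and values with the GC trend removed are given with the 8 tested members.

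DUSP1, on chromosome 5 (172768090 to 172771195; this and later spans are those of GENCODE 29 genes, GRCh38), was the most abundant member. It stood at 139, 141 and 117 FPKM (fragments scaled to gene length and to the library's total) with vehicle, in the order of the replicate numbers, and at 172, 174 and 173 FPKM with CBD. Every CBD library lay above every vehicle library, and the CBD values were far closer together than the vehicle values, in which replicate 3 was low. The means were 132 ± 13.5 and 173 ± 0.952 FPKM (SD, n = 3 each). On a scale of log2(FPKM + 1), on which changes of low genes look smaller than they are, DUSP1 differed by 0.39 ± 0.08 (SE; 95% interval 0.21 to 0.58; limma adjusted p = 0.0590). The count behind these levels was 4616 to 8308 fragments per library. The limma-voom fit gave 0.41 (adjusted p = 0.0122), and removal of the GC trend gave 0.31 (limma adjusted p = 0.137).

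DUSP4, which encodes another nuclear phosphatase of broad range, lay the other way. On chromosome 8 (29333064 to 29350668), it had 2.39, 2.17 and 2.02 FPKM with vehicle and 1.90, 1.82 and 1.83 FPKM with CBD, so the groups did not overlap but came close. The difference was -0.16 ± 0.07 (95% interval -0.33 to 0.01; limma adjusted p = 0.176), and -0.21 with the GC trend removed (adjusted p = 0.22). Neither limma nor limma-voom (adjusted p = 0.119) called it.

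DUSP5, the nuclear phosphatase of ERK, lay lower with CBD. On chromosome 10 (110497838 to 110511544), it stood at 5.99, 6.80 and 6.37 FPKM with vehicle and at 4.87, 4.82 and 4.30 FPKM with CBD, from 232 to 390 fragments per library. All 3 CBD libraries lay below the lowest vehicle library, which was replicate 1. The means were 6.39 ± 0.402 and 4.67 ± 0.318 FPKM (SD, n = 3), a log2 difference of -0.38 ± 0.07 (95% interval -0.54 to -0.22; limma adjusted p = 0.0553). DUSP5 ranked 160th among the 12517 tested genes by p. It was called by limma-voom (-0.43; adjusted p = 0.0262), and with the GC trend removed the difference was -0.47 (limma adjusted p = 0.0564).

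DUSP6 and DUSP7, the cytoplasmic ERK phosphatases, were called by neither fit. DUSP6, often read as a gauge of ERK output because its transcription follows ERK activity, is on chromosome 12 (89347232 to 89353271) and had 1.56, 1.33 and 1.90 FPKM with vehicle and 1.20, 1.36 and 1.28 FPKM with CBD. Vehicle replicate 2 lay below CBD replicate 2, and the vehicle group was the more scattered. The DUSP6 difference was -0.18 ± 0.10 with a 95% interval from -0.42 to 0.06 (limma adjusted p = 0.260), which takes in both no difference and one as large as that of DUSP5. Removal of the GC trend gave -0.17 (limma adjusted p = 0.391). DUSP7, on chromosome 3 (52048919 to 52056550), stood at 19.0, 16.9 and 17.2 FPKM with vehicle and 16.4, 16.6 and 16.5 FPKM with CBD. Its groups did not overlap, but vehicle replicate 2 was only slightly above the CBD libraries, and the difference was -0.09 ± 0.06 (95% interval -0.22 to 0.04; limma adjusted p = 0.277). DUSP7 is the member with the most GC-rich transcript, 59.6%, and removal of the GC trend gave -0.25 (limma adjusted p = 0.193).

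DUSP10, the phosphatase gene for JNK and p38 on chromosome 1 (221701424 to 221742176), had 5.68, 5.13 and 5.12 FPKM with vehicle and 6.21, 7.13 and 7.10 FPKM with CBD. All CBD libraries lay above all vehicle libraries, and CBD replicate 1 was the nearest to them. The means were 5.31 ± 0.318 and 6.82 ± 0.522 FPKM (SD, n = 3), a log2 difference of 0.31 ± 0.07 (95% interval 0.14 to 0.47; limma adjusted p = 0.0636). The limma-voom fit gave 0.37 and called it (adjusted p = 0.0342). Its transcript has 45.6% GC, below the median of 48.9% for tested genes, and removal of the GC trend gave 0.38 (limma adjusted p = 0.0787).

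**Figure D1:**
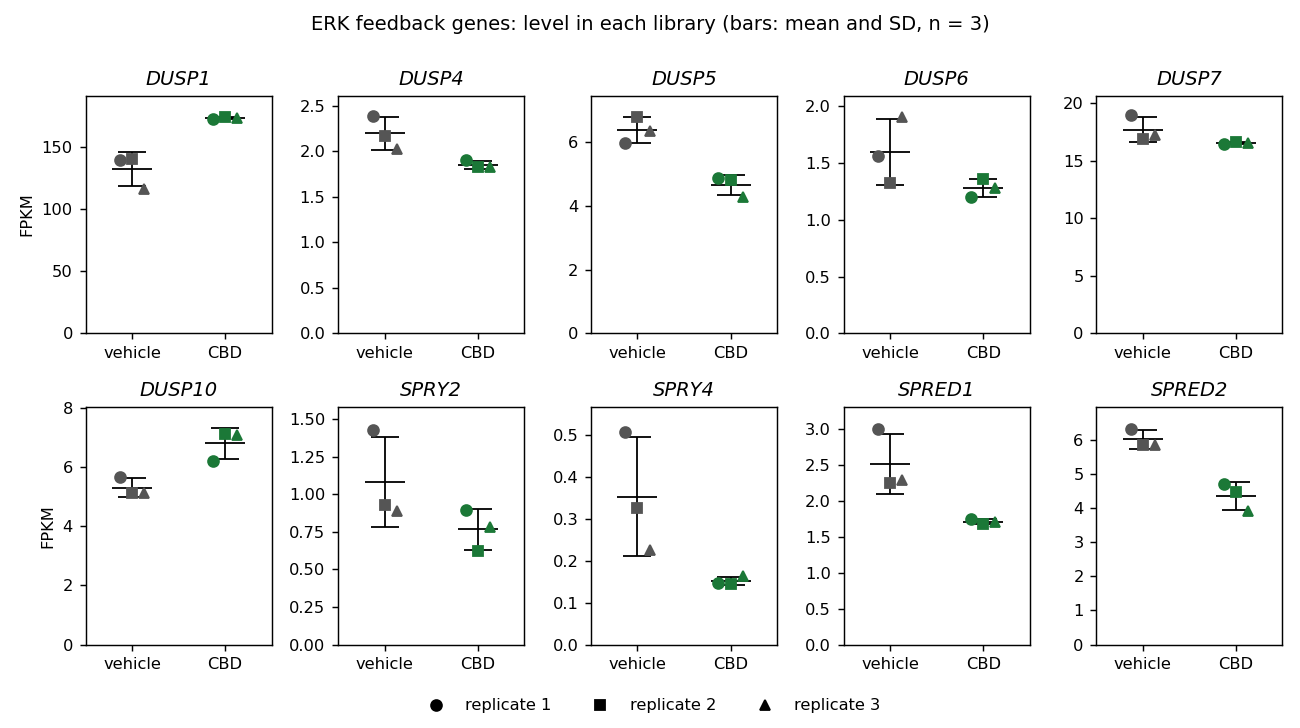
FPKM of each of the 10 genes (vertical axes, each from 0) in the 3 vehicle (grey) and 3 CBD (green) libraries; marker shape gives the replicate and bars the mean and SD. DUSP1 and DUSP10 lie higher with CBD in all 3 libraries, DUSP6 and SPRY2 overlap, and the remaining 6 genes lie lower with CBD in all 3.

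The SPRED genes both lay lower with CBD. SPRED2, on chromosome 2 (65310851 to 65432637), stood at 6.33, 5.85 and 5.84 FPKM with vehicle and at 4.70, 4.48 and 3.90 FPKM with CBD, from 415 to 745 fragments. The groups were well separated, with CBD replicate 3 the lowest library. The means were 6.01 ± 0.276 and 4.36 ± 0.412 FPKM (SD, n = 3), a log2 difference of -0.39 ± 0.07 (95% interval -0.56 to -0.22; limma adjusted p = 0.0558). It was called by limma-voom (-0.45; adjusted p = 0.0157), and was -0.41 with the GC trend removed (limma adjusted p = 0.0802).

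SPRED1, on chromosome 15 (38252326 to 38357249), had 2.99, 2.25 and 2.29 FPKM with vehicle and 1.74, 1.67 and 1.71 FPKM with CBD. Vehicle replicate 1 was the highest library, and the other vehicle libraries were still above all CBD libraries. The difference was -0.37 ± 0.10 (95% interval -0.59 to -0.14; limma adjusted p = 0.0763), -0.27 without vehicle replicate 1 (adjusted p = 0.0837), and -0.23 with the GC trend removed (adjusted p = 0.182). SPRED1 has the lowest GC content of the members, 40.7%. The limma-voom fit called it (-0.53; adjusted p = 0.0232).

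The Sprouty genes were the least abundant members and did not reach the mean of 1 FPKM required for testing. SPRY2, on chromosome 13 (80335976 to 80340951), had 1.43, 0.930 and 0.889 FPKM with vehicle and 0.897, 0.626 and 0.782 FPKM with CBD (exact permutation p = 0.2, two-sided). CBD replicate 1 lay within the vehicle range. SPRY4, on chromosome 5 (142310427 to 142326455), had 0.507, 0.326 and 0.225 FPKM with vehicle and 0.147, 0.145 and 0.162 FPKM with CBD. These levels rest on 76, 47 and 29 fragments against 23, 22 and 22, all above a floor of 3 fragments, which for this gene is 0.0192 to 0.0233 FPKM and covers counting error only. Its groups did not overlap (exact permutation p = 0.1, two-sided, the smallest that 3 against 3 can give), and the vehicle libraries differed among themselves by more than the CBD libraries did. When limma-voom was run on all genes with at least 10 fragments in total, a setting added after the data were seen, SPRY4 was called as lower (log2 difference -1.15, 95% interval -1.85 to -0.44; adjusted p = 0.0459). In that setting 6 of the 10 members were called, 2 higher and 4 lower, against 7.97% of 21965 genes (4.68% higher and 3.3% lower). The call was lost without vehicle replicate 1 (-0.84; adjusted p = 0.122). SPRY2 was not called there (-0.48; adjusted p = 0.249).

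**Figure D2:**
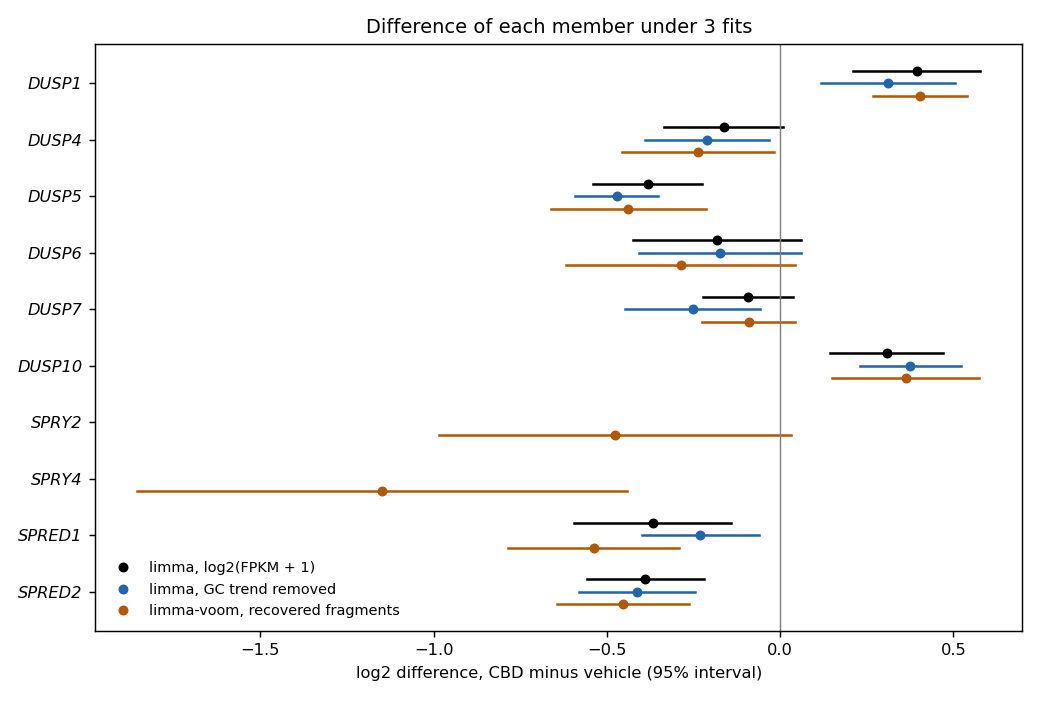
Log2 difference, CBD minus vehicle, with its 95% interval (horizontal axis) for each gene under limma on log2(FPKM + 1), limma with the GC trend removed, and limma-voom on recovered fragments with at least 10 per gene. SPRY2 and SPRY4 have only the last. DUSP1 and DUSP10 lie above 0 under all 3, and DUSP5, SPRED1 and SPRED2 below 0 with intervals that do not reach it.

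The direction of each tested member was set beside its GC content, and the part of GC content in these differences was not tested. DUSP10, with a GC content below the median, lay higher with CBD, while DUSP5 (55.5%), DUSP7 (59.6%), DUSP4 (53.1%) and SPRED2 (51.8%), all above the median, lay lower. DUSP6 (49.9%), also above the median, had a lower mean with overlap between its groups. DUSP1 (55.1%) and SPRED1 (40.7%) lay in the direction of the trend. With the trend removed, all 8 tested members kept their direction, and limma called 0 of them, against 0.0639% of 12510 genes (0.032% in each direction). By limma 7 members, all but DUSP6, had an unadjusted p under 0.05, against 18.3% of all genes. Of these, 2 lay higher, against 8.22%, and 5 lower, against 10.1%.

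**Figure D3:**
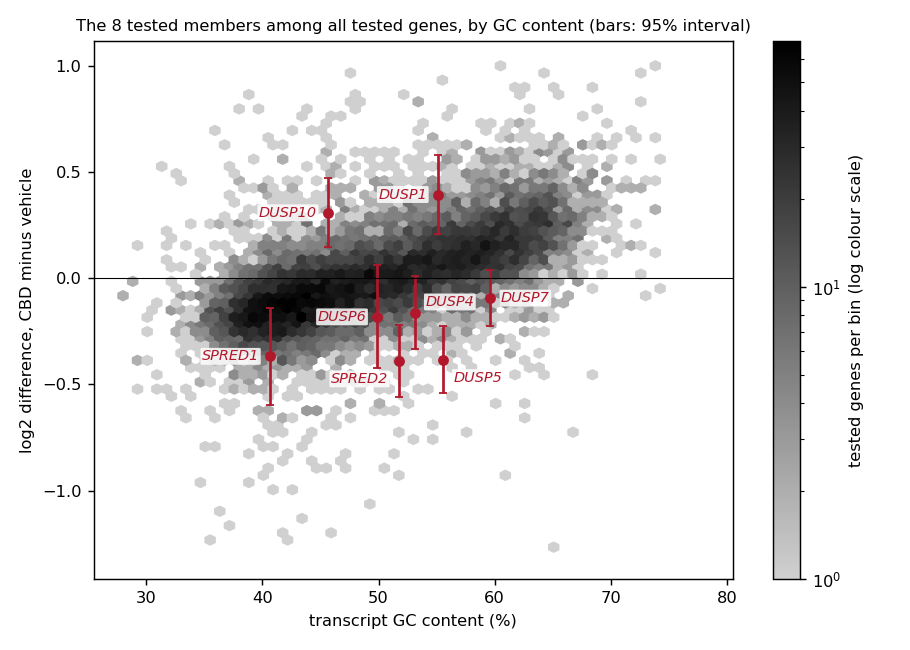
Log2 difference (vertical axis) against transcript GC content in percent (horizontal axis) for all tested genes (grey bins, darker for more genes) and the 8 tested members (red, with 95% intervals). The bins rise from left to right. DUSP10 lies above the trend of the bins at 45.6% and DUSP5 below it at 55.5%.

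Compared per length, the levels of the members covered a wide range, and their order was not the same in the 2 groups. With vehicle the order by mean FPKM was DUSP1, DUSP7, DUSP5, SPRED2, DUSP10, SPRED1, DUSP4, DUSP6, SPRY2 and SPRY4, in which the values of DUSP5 and SPRED2, of SPRED1 and DUSP4, and of DUSP6 and SPRY2 overlapped. With CBD, DUSP10 stood next after DUSP7, above DUSP5 and SPRED2, and only those last 2 overlapped. DUSP4 then stood above SPRED1, without overlap. The ratio of DUSP10 to SPRED2 was 0.897, 0.876 and 0.877 with vehicle and 1.32, 1.59 and 1.82 with CBD. DUSP1 made up 73.6% to 77.1% of the summed FPKM of the 10 genes with vehicle and 81.8% to 82.2% with CBD. The other 9 genes together summed to 41.7 to 45.9 FPKM with vehicle and 37.6 to 38.7 FPKM with CBD. These ratios and sums were formed after the values were seen and were not tested.

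**Figure D4:**
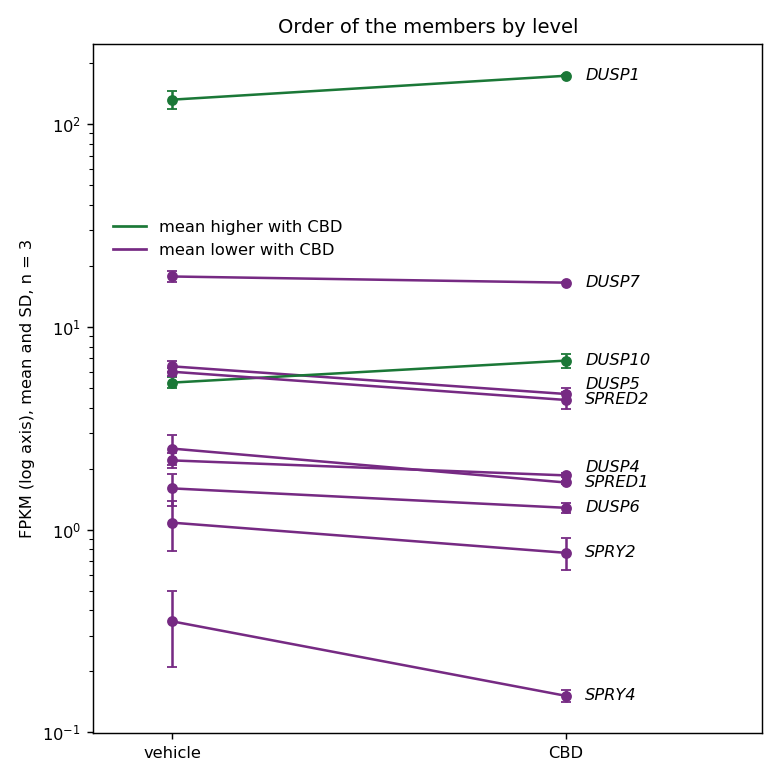
Mean FPKM (log axis, bars SD, n = 3) of the 10 genes with vehicle and with CBD, joined by lines that are green where the CBD mean is higher and purple where it is lower. DUSP10 crosses DUSP5 and SPRED2, and DUSP1 stands far above the rest at 132 and 173 FPKM.

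Vehicle libraries varied more than CBD libraries in 7 of the 10 members, by coefficient of variation. This count and the next were not set against all tested genes, over which vehicle replicate 1 stood apart too. Vehicle replicate 1 was the highest vehicle library for 7 of the 10 (DUSP4, DUSP7, DUSP10, SPRY2, SPRY4, SPRED1 and SPRED2). Without it the differences of DUSP1, DUSP5, DUSP10 and SPRED2 were 0.43, -0.42, 0.35 and -0.36, and limma called 0 of the 8, against 0.647% of all tested genes, with 5 at an unadjusted p under 0.05, against 28.8%. Without vehicle replicate 2, DUSP1 (adjusted p = 0.0263), DUSP5 (0.0302), SPRED1 (0.0426) and SPRED2 (0.0305) were called by limma, 4 of the 8 against 18.8% of all tested genes. In another setting only the 7275 genes at a mean of 5 FPKM or more over all 6 libraries were tested. Of these limma called 10.1% (5.87% higher and 4.19% lower), and 4 of the 5 members at that level. DUSP1 (limma adjusted p = 0.0364) and DUSP10 (0.0435) were called as higher and DUSP5 (0.0342) and SPRED2 (0.0358) as lower. DUSP5 and SPRED2 passed that level only through their vehicle values, as their CBD means were 4.67 and 4.36 FPKM. Their calls and the count of 4 are therefore no separate support.

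By a rule set for DUSP6, the 3 genes whose log2 levels followed its own most closely over the 6 libraries, among 7270 genes at a mean of 5 FPKM or more, were PHACTR4 (Pearson r = 0.986), a regulator of protein phosphatase activity and actin, SLC23A2 (0.982), a vitamin C transporter, and ENAH (0.979), an actin regulator. PHACTR4 stood at 12.7, 12.0 and 13.6 FPKM with vehicle and 11.5, 11.8 and 11.5 FPKM with CBD, so that vehicle replicate 3 was highest, as for DUSP6. All values come from the same 6 libraries, and with so few points such correlations are a description only.

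The relay above the feedback genes, and the genes around it, were read from 5 lists of genes. Like the members, these lists were chosen with earlier results of these data known, so their counts are a description only. Of 12 tested receptor and ligand genes, limma called 0 in either direction, 3 lay higher and 5 lower at an unadjusted p under 0.05, and limma-voom called 3 higher and 4 lower. Over all tested genes, limma called 0.256% as higher and 0.0959% as lower, limma-voom 8.06% and 5.63%, and 15.4% and 16.0% had an unadjusted p under 0.05 in limma. The median difference was -0.09, against -0.01 over all tested genes. Amphiregulin (AREG) and epiregulin (EREG), ligands of the EGF receptor, stood at 26.7 ± 1.06 and 20.4 ± 1.33 FPKM (limma adjusted p = 0.0539) and at 2.44 ± 0.153 and 1.78 ± 0.0724 FPKM (0.0636). FGFBP1, a carrier that releases fibroblast growth factors from the matrix, had 238 ± 24.4 and 170 ± 5.80 FPKM (0.0547), and the receptor gene FGFR3 39.6 ± 5.64 and 54.1 ± 2.19 FPKM (0.0636). None of the 4 was called by limma. In each the groups did not overlap, but the 4 were named for having the smallest p in the list. Of all 12, 4 lay higher and 5 lower without overlap, against 18.7% and 21.9% of all tested genes. With the GC trend removed, the log2 difference of FGFR3 was 0.23 in place of 0.45 and that of EREG -0.15 in place of -0.31.

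The RAS-ERK cascade itself was divided. Of 22 tested genes 11 lay above 0 and 11 below, with a median of 0.0056. Limma called 0, with 5 higher and 3 lower at an unadjusted p under 0.05, against 15.4% and 16.0% of all tested genes. Limma-voom called 3 higher and 1 lower, against 8.06% and 5.63%. MAPK3, which encodes ERK1, stood at 14.3 ± 0.808 FPKM with vehicle and 17.0 ± 0.429 with CBD (limma adjusted p = 0.0671), and MAP2K2, which encodes MEK2, at 23.4 ± 1.07 and 27.8 ± 1.51 FPKM (0.0711). The RAS-related gene RRAS had 24.5 ± 1.78 and 31.0 ± 1.32 FPKM (0.0597). NRAS lay lower, with 30.0 ± 3.39 and 24.0 ± 0.477 FPKM (0.0778). All 4 log2 differences were much smaller with the GC trend removed, 0.051 for MAPK3, 0.011 for MAP2K2, 0.070 for RRAS and -0.14 for NRAS, against 0.23, 0.24, 0.32 and -0.30 without that step.

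Among 12 tested genes known to depend on ERK activity, 10 lay below 0 and 2 above, with a median of -0.24, and -0.30 with the GC trend removed. Over all 12517 tested genes 6590 lay below 0 and 5927 above, with a median of -0.01. FOSL1, an AP-1 subunit whose gene and protein are raised by ERK signalling, fell, as the only call in the list. It stood at 4.75, 5.12 and 4.94 FPKM with vehicle and 3.38, 2.70 and 2.65 FPKM with CBD, a difference of -0.61 ± 0.08 (limma adjusted p = 0.0470), with no overlap between the groups. Its adjusted p was 0.0508 without vehicle replicate 1, 0.167 without vehicle replicate 3, and 0.128, 0.198 and 0.177 without CBD replicates 1, 2 and 3. At an unadjusted p under 0.05 in limma, 1 gene lay higher and 7 lower, against 15.4% and 16.0% of all tested genes. Limma-voom called 1 higher and 5 lower, against 8.06% and 5.63%. The receptor gene EPHA2 had 13.6 ± 0.728 and 10.4 ± 0.642 FPKM (limma adjusted p = 0.0557) and the chromatin protein gene HMGA2 3.66 ± 0.0523 and 2.83 ± 0.123 FPKM (0.0588). EGR1, an early response factor, lay the other way, like DUSP1, at 32.3 ± 5.61 and 48.2 ± 1.90 FPKM (0.0604).

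Of 13 tested genes for other negative regulators of receptor and ERK signalling, 3 lay above 0 and 10 below, with a median of -0.09. Over all tested genes 5927 lay above 0 and 6590 below, with a median of -0.01. Limma called 0 of the 13, with 2 higher and 3 lower at an unadjusted p under 0.05, against 15.4% and 16.0% of all tested genes. Limma-voom called 2 higher and 1 lower, against 8.06% and 5.63%. DUSP9, another cytoplasmic ERK phosphatase beside DUSP6 and DUSP7, stood at 5.91, 7.12 and 6.65 FPKM with vehicle and 9.72, 9.45 and 8.35 FPKM with CBD (limma adjusted p = 0.0574). Its groups did not overlap, and its direction was opposite to that of the DUSP6 and DUSP7 means. RASA2, a RAS inactivator, had 3.89 ± 0.356 and 2.91 ± 0.256 FPKM (0.0718), DAB2IP, another, 13.6 ± 1.02 and 16.4 ± 0.221 FPKM (0.0670), and ERRFI1, a feedback inhibitor of the EGF receptor, 8.77 ± 0.163 and 7.68 ± 0.463 FPKM (0.102). With the GC trend removed, the log2 differences of DUSP9, DAB2IP and RASA2 were 0.15, 0.068 and -0.17 in place of 0.43, 0.26 and -0.32.

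The last list held the genes of the JNK and p38 kinases, on which DUSP1 and DUSP10 act, with kinases upstream and downstream of them. All 13 genes were tested and limma called 0. At an unadjusted p under 0.05 in limma 2 lay higher and 2 lower, against 15.4% and 16.0% of all tested genes. Limma-voom called 1 higher and 0 lower, against 8.06% and 5.63%. The median of the 13 was 0.05. MAPK13, the gene for p38 delta, had 16.3 ± 0.342 and 18.0 ± 0.797 FPKM (limma adjusted p = 0.125), MAPK8, which encodes JNK1, 5.55 ± 0.428 and 4.88 ± 0.221 FPKM with overlap between the groups (0.159), the JNK activator gene MAP2K7 12.0 ± 2.02 and 14.5 ± 0.350 FPKM (0.149), and the upstream kinase gene MAP3K7 11.0 ± 0.741 and 9.74 ± 0.216 FPKM (0.122). With the GC trend removed, MAPK8 and MAP3K7 no longer lay below 0 (0.013 and 0.0075), and MAPK13 and MAP2K7 lay at 0.057 and 0.057 in place of 0.14 and 0.27.

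**Figure D5:**
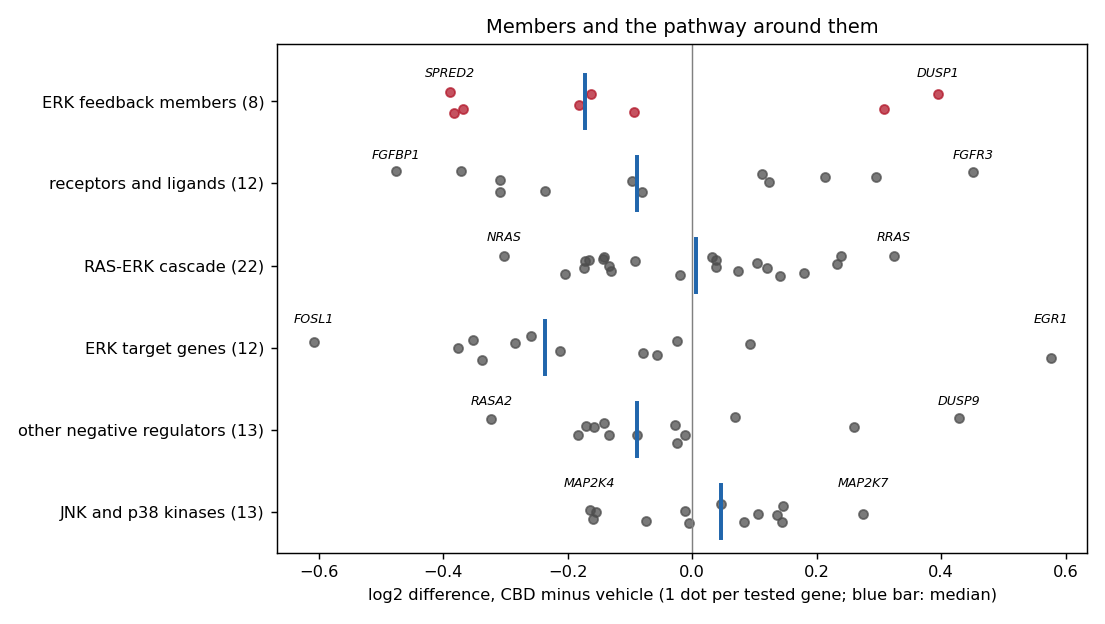
Log2 difference, CBD minus vehicle (horizontal axis), of each tested gene in the members and the 5 pathway lists (rows, number of tested genes in brackets); blue bars mark medians and the lowest and highest gene of each row are named. The medians are -0.17 for the members and -0.24 for the ERK target genes, and lie between -0.09 and 0.05 in the other lists.

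RNA from bulk samples does not show whether a lower level reflects fewer cells that express a gene or less RNA in each. With strand handling unknown, reads of genes antisense to DUSP1, DUSP6 and SPRY4 cannot be told apart from their own wherever exons overlap. These genes were found by gene span, and overlap of exons was not checked. Those antisense genes reached at most 0.061, 0.141 and 0.0803 FPKM in any library. Compared per length, that is far below DUSP1 but not small beside SPRY4, at 0.145 to 0.162 FPKM with CBD. If exons are shared, the SPRY4 level is uncertain.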

How the data were processed

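RNA of 6 HOK-16B libraries, 3 per group, was column-extracted and sequenced paired-end, per the labels' protocols. The authors deposited a table of FPKM for 58735 genes, 1 column per library and not pooled, per the file headers. An aligner, HISAT2 2.0.5, and a read counter, featureCounts 1.5.0-p3, are named in the submitters' processing notes. Genome build, annotation, strand handling and any filters are not given in the sources used here. All identifiers were matched to GENCODE 29 (GRCh38). FPKM times exon-union length, divided by the value of 1 fragment, was whole within 0.01 for 100% of the values above 0, which gave fragments per gene. FPKM rests on library totals, so a change in an abundant class shifts all genes, and GC bias is not corrected.

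Treatment labels gave the groups, and titles the replicate numbers. Differences were tested on log2(FPKM + 1) for 12517 genes with a mean of at least 1 FPKM, by limma 3.58.1 (R 4.3.3) with no term beside group, a trend in the variance prior, two-sided, and Benjamini-Hochberg adjustment at 0.05. Exact permutation tests used all 3-against-3 assignments. GC trends were removed per library by loess (span 0.3) on transcript GC content. Same-group libraries differed by a chi-square per gene of 3.09 to 18.4, above sampling noise, so none was taken for 1 library deposited in duplicate. Named are the 10 members and, from each pathway list, called genes or up to 4 genes with the smallest p. The members, lists and tests were chosen with earlier results of these data known. Tables and plots used Python 3.11.15, pandas 2.3.3, numpy 2.4.6 and matplotlib 3.10.9.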

Additional observations from a re-analysis of the deposited data

How the results depend on the processing

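Limma called 0 members higher and 0 lower, and 32 and 12 of all genes. Over all tested genes the counts were 56 and 17 with median-ratio scaling, 427 and 305 at a mean of at least 5 FPKM, 1009 and 705 with limma-voom, 4 and 4 with the GC trend removed, and 0 and 0 without the low-value filter (4670 genes at an unadjusted p under 0.05). Members called were 2 higher and 3 lower with limma-voom and 2 and 2 at a mean of at least 5 FPKM. The 2 lower ones there, DUSP5 and SPRED2, passed that level only through their vehicle values. Leaving out 1 library at a time gave 0 to 1267 genes higher and 0 to 1084 lower, with 0 to 1 and 0 to 3 members. All of these member calls, and most of the gene calls, came without vehicle replicate 2. There limma called 4 of 8 members, against 18.8% of all tested genes. Of settings added after seeing the data, limma-voom from 10 fragments gave 1027 and 724 of 21965 genes (2 and 4 of 10 members). The same without vehicle replicate 1 gave 1112 and 881 of 21965 genes (2 and 3 of 10 members). The GC correction without vehicle replicate 1 gave 0 and 0 (2272 genes at an unadjusted p under 0.05). The cause of these shifts was not tested.

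With the replicate number as a block, limma called 0 genes higher and 0 lower and 0 members, with 3676 genes at an unadjusted p under 0.05. Same-numbered libraries did not deviate together (correlations -0.0027, 0.052 and 0.024). With 3 libraries per group this cannot decide whether the numbers mark a shared culture or batch, and the labels do not say. Every tested member kept its direction in every setting run. Of the other named genes, MAP3K7 (0.0075) and MAPK8 (0.013) reversed with the GC trend removed, and with vehicle replicate 1 also left out MAP3K7 (0.0013), MAPK8 (0.012) and MAP2K7 (-0.025) did. With 22 to 23 fragments per CBD library, SPRY4 is the member most limited by depth.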
